A study of Mus musculus with 10 samples.

Results

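The genes described here are the interferon-induced genes of mouse epidermis, chosen by name. They are those whose symbol in the platform annotation begins as an Ifi, Ifit, Ifitm, Oas, Oasl, Isg or Gbp gene, or is Ifih1, Irf1, Irf3, Irf7, Irf9, Mx1, Mx2, Stat2 or Rsad2. This gave 57 genes of the 19938 that have a probe set with a single symbol, and 52 of the 57 passed the filter on low values. Where several probe sets carried a gene's symbol, the brightest on average over all 10 arrays was taken. The name rule used no measured difference between genotypes. It also takes in genes that are named by family and not by response, such as Ifitm5, a bone gene, and Isg20l2, named for its likeness to the exonuclease Isg20.

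To ask how loss of integrin-linked kinase (ILK), a scaffold protein of integrin adhesions, alters transcripts in the epidermis, RNA from 3-day-old mice was hybridized to GeneChip Mouse Gene 1.0 ST Arrays, 1 mouse per array. ILK-deficient epidermis (K14Cre; Ilk f/f, 5 arrays) came from mice with both Ilk alleles floxed, and ILK-expressing epidermis (K14Cre; Ilk f/+, 5 arrays) from mice with a single floxed allele. Mice of both groups were heterozygous for the KRT14-cre transgene and were bred by crossing Ilktm1Star with Tg(KRT14-cre)1Amc/J and the offspring back to Ilktm1Star, so the controls also carry Cre and have a single intact Ilk allele once Cre has acted. The keratin 14 promoter drives Cre in basal keratinocytes, and melanocytes, Langerhans cells and T cells of the epidermis keep Ilk. Both groups were freed from the dermis with dispase.

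Interferons are secreted cytokines that cells release on sensing viral or misplaced nucleic acids. Type I interferons act through the receptor chains Ifnar1 and Ifnar2, the Janus kinases and a complex that holds Stat2 and Irf9 and binds the interferon-stimulated response element (ISRE) in the promoters of antiviral genes. Type II interferon acts through gamma-activated sites (GAS) in its target genes. Keratinocytes sense nucleic acids, make interferons and respond to them, and the response is a feature of viral infection and of inflammatory disease of the skin.

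A value here is a deposited log2 expression value, so a difference of 1 is a doubling, and log2 fold changes are ILK-deficient minus ILK-expressing, positive where the transcript was more abundant without ILK. Calls were made with limma on 32046 probe sets at an adjusted p under 0.05, with Benjamini-Hochberg adjustment over all of them. Array medians lay between 7.07 and 7.17. The probe set for Ilk, which pools probes over the whole transcript, averaged 8.94 ± 0.118 on ILK-deficient arrays and 9.17 ± 0.181 on ILK-expressing arrays (SD, n = 5 each) with a log2 fold change of -0.23 (limma adjusted p = 0.253), and so is a weak check of the labels. All 10 keratinocyte markers listed were detected, with Krt5 at 13.75 in ILK-deficient and 13.83 in ILK-expressing epidermis. In whole epidermis, fewer cells of a type and less RNA per cell cannot be told apart. The p values measure the spread between these mice. The labels also give each mouse a letter whose meaning they do not state, D for 4 ILK-deficient and 3 ILK-expressing mice, D' for 1 of each genotype, and C' for ILK-expressing replicate 5 alone.

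The promoters below are those of the only member called, Ifi202b, and of Ifi207, Ifitm2 and Ifit1, whose values are described next. Each is the 160 bases before an annotated RefSeq start (GRCm38.p6), written 5′ to 3′ on the gene's strand, with capitals marking a match to the ISRE core GAAANNGAAA, or its reverse TTTCNNTTTC, or to the GAS core TTCNNNGAA, which is its own reverse complement. Both strands were searched and matches were counted whether or not they overlapped others. Ifi207, Ifitm2 and Ifit1 were taken from members with printed values whose promoters held an ISRE core, so its presence in them was set by the choice. The promoter of Ifi202b was added after its values had been seen.
Ifi202b (chr1:173982845-173983004, minus strand): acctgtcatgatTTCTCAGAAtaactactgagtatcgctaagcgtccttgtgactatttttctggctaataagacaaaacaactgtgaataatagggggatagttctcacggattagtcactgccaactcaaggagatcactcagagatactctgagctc
Ifi207 (chr1:173741810-173741969, minus strand): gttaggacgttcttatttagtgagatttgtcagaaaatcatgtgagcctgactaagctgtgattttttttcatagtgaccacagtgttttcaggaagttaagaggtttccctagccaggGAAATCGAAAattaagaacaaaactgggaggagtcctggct
Ifitm2 (chr7:140955962-140956121, minus strand): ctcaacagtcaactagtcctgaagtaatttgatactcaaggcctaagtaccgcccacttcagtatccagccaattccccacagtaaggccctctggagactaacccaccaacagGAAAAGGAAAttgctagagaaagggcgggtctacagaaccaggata
Ifit1 (chr19:34640729-34640888, plus strand): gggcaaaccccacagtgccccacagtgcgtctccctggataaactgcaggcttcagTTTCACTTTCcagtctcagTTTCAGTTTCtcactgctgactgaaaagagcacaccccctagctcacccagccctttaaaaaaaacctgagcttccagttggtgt
In Ifi207 and Ifitm2 the ISRE core began 41 and 46 bases before the start, and Ifit1 held a pair of cores, at 104 and 85 bases. The stretch from Ifi202b held a GAS core at 148 bases and no ISRE core. In windows of 300 bases, 250 of them before the start, the ISRE core occurred in 23 of the 54 promoters that the table holds for 44 members (42.6%), against 1131 of 32851 promoters of all genes (3.44%). The GAS core occurred in 10 of the 54 (18.5%), against 8.3% of all promoters. Among other members with values given on every array, Gbp7, Ifit3 and Stat2 also held an ISRE core in these windows. Oasl2, Ifi30, Irf1, Irf3, Irf7, Irf9, Oas1f and Isg20l2 held none. The ISRE cores of Ifitm3 began 2 and 19 bases after the start. These matches describe letters and do not show that a factor binds there.

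Ifi202b was the single member that differed between genotypes past the threshold, and it was higher in ILK-deficient epidermis. It belongs to the Ifi200 family on chromosome 1, whose proteins sense DNA in the nucleus or cytosol or act on transcription, and it is known from work on lupus-prone mice and for levels that differ between inbred strains. Its values were 9.16, 9.07, 9.67, 9.35 and 9.62 on the ILK-deficient arrays, against 7.74, 7.60, 7.87, 8.10 and 8.03 on the ILK-expressing arrays. Every ILK-deficient array lay above every ILK-expressing array. The mean was 9.37 ± 0.266 in ILK-deficient and 7.87 ± 0.202 in ILK-expressing epidermis (SD, n = 5 each), a log2 fold change of 1.5 (standard error 0.137, 95% interval 1.2 to 1.81, limma adjusted p = 0.00103), or 2.84-fold. An exact permutation test (two-sided) gave p = 0.00794, the smallest that 5 arrays against 5 allow. Of the 32046 probe sets, 20 (0.0624%) had a log2 fold change as large or larger. The strain of each mouse beyond the labelled cross was not analysed here, and other Ifi200 genes are close in sequence, so signal from a paralog cannot be told apart from that of Ifi202b.

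**Figure D1:**
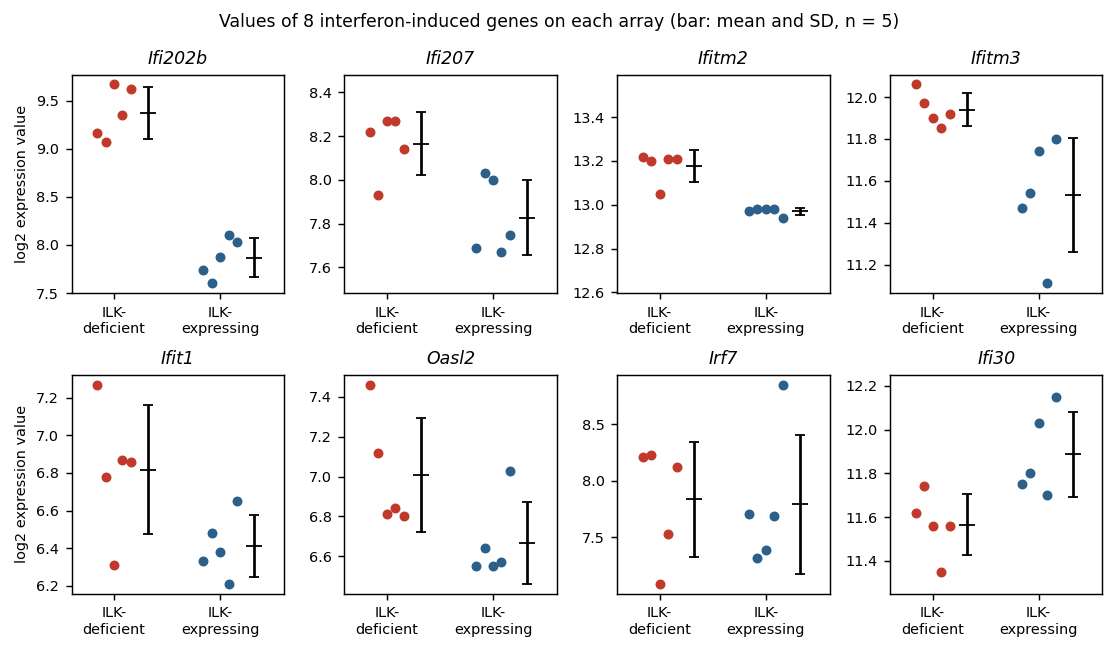
Log2 expression values of 8 interferon-induced genes, with 1 point per array, ILK-deficient left and ILK-expressing right in each panel, and bars for the mean and SD of 5 arrays. Only the panels of Ifi202b, Ifitm2 and Ifitm3 show genotypes without overlap, and that of Ifi202b has the widest gap between the means (9.37 and 7.87).

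The other Ifi200 genes, neighbours of Ifi202b within the same cluster, did not pass the test. Ifi207 read 8.22, 7.93, 8.27, 8.27 and 8.14 on the ILK-deficient arrays, against 7.69, 8.03, 8.00, 7.67 and 7.75 on the ILK-expressing arrays. ILK-deficient replicate 2 lay among the ILK-expressing values. The log2 fold change was 0.34 (standard error 0.0976, limma adjusted p = 0.0911). Ifi205 had a log2 fold change of 0.31 (limma adjusted p = 0.512), with 7.04 and 6.93 on ILK-deficient replicates 1 and 2 and 6.19 to 6.35 on the other 3, against 5.90 to 6.56 on the ILK-expressing arrays. The remaining 5 tested genes of the family lay between -0.08 for Ifi206 and 0.03 for Ifi203, the member next to Ifi202b on the lower side in coordinates. The median over the 8 tested was 0.03, so Ifi202b stood apart in size from the other genes of its family tested. A probe set shared by Ifi211 and Ifi204, of the same family, is not among the 8. It was at 0.44 (limma adjusted p = 0.12), with every ILK-deficient array above every ILK-expressing array. The nearest values of the 2 genotypes both rounded to 8.24.

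The Ifitm genes encode small membrane proteins that hinder the entry of viruses into cells, and those for Ifitm2 and Ifitm3 separated the genotypes by small margins. Ifitm3, the best studied of them, read 12.06, 11.97, 11.90, 11.85 and 11.92 on the ILK-deficient arrays, against 11.47, 11.54, 11.74, 11.11 and 11.80 on the ILK-expressing arrays. All ILK-deficient values were higher, by as little as 11.85 against 11.80, and ILK-expressing replicate 4 was the lowest. The log2 fold change of 0.41 (standard error 0.119, exact permutation p = 0.00794) did not pass over all probe sets (limma adjusted p = 0.0979). Ifitm2 read 13.22, 13.20, 13.05, 13.21 and 13.21 on the ILK-deficient arrays, against 12.97, 12.98, 12.98, 12.98 and 12.94 on the ILK-expressing arrays, a tight spread in both. Its log2 fold change was 0.21 (standard error 0.0528, limma adjusted p = 0.0598). Without ILK-deficient replicate 3, the lowest of its group, it was 0.24 (limma adjusted p = 0.0366), which passed. The other 2 probe sets named Ifitm2 gave 0.20 and 0.19, with limma adjusted p = 0.0757 and 0.241, and cross-hybridization among the Ifitm paralogs cannot be told apart from expression of each. Over the 7 Ifitm genes the log2 fold changes ran from -0.10 for Ifitm10 to 0.41, with a median of 0.13.

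The Ifit proteins bind foreign RNA ends and block translation, and they are among the most strongly induced targets of type I interferon. Ifit1 read 7.27, 6.78, 6.31, 6.87 and 6.86 on the ILK-deficient arrays, against 6.33, 6.48, 6.38, 6.21 and 6.65 on the ILK-expressing arrays. Replicate 1 was the highest and replicate 3 the lowest of the ILK-deficient arrays, and the value of replicate 3 fell among the controls. The log2 fold change was 0.41 (standard error 0.154, limma adjusted p = 0.21), and leaving out ILK-deficient replicate 3 gave 0.53 (limma adjusted p = 0.049), while leaving out ILK-deficient replicate 1 gave 0.29 (limma adjusted p = 0.384). Ifit3 read 8.04, 7.85, 7.69, 8.06 and 7.68 on the ILK-deficient arrays, against 7.65, 8.05, 7.52, 7.86 and 7.37 on the ILK-expressing arrays, with wide overlap (log2 fold change 0.17, limma adjusted p = 0.661). Ifit2 reached a linear value of 50 on 2 arrays only, both ILK-deficient, and was not tested.

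The oligoadenylate synthetases (Oas and Oasl) detect double-stranded RNA, and the catalytic ones switch on RNase L. Oasl2 read 7.46, 7.12, 6.81, 6.84 and 6.80 on the ILK-deficient arrays, against 6.55, 6.64, 6.55, 6.57 and 7.03 on the ILK-expressing arrays. ILK-expressing replicate 5 stood above the other 4 controls and above 3 of the ILK-deficient arrays. The log2 fold change was 0.33 (standard error 0.144, limma adjusted p = 0.284). Oas1f, a gene of the Oas1 cluster, read 10.56, 10.68, 10.72, 10.33 and 10.93 on the ILK-deficient arrays, against 10.70, 10.31, 11.10, 10.92 and 10.87 on the ILK-expressing arrays, a log2 fold change of -0.14 (limma adjusted p = 0.797) that ran from -0.25 to -0.06 with 1 array left out. None of the 10 Oas and Oasl genes tested was called, and their median was 0.06.

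Among the transcription factors of the pathway, none passed. Irf7, the factor that amplifies type I interferon production, read 8.21, 8.23, 7.09, 7.53 and 8.12 on the ILK-deficient arrays, against 7.71, 7.32, 7.39, 7.69 and 8.85 on the ILK-expressing arrays. Both genotypes held high and low mice, and ILK-expressing replicate 5 was the highest of all 10. The log2 fold change was 0.05 with a 95% interval of -0.65 to 0.74 (limma adjusted p = 0.977), and its sign turned when any of 5 single arrays was left out (range -0.07 to 0.31). The SD of Irf7 within genotypes, 0.564, was the widest of the members tested and at the 96.9 percentile of all probe sets.

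Irf1, an early target of type II interferon, read 6.81, 6.52, 6.99, 6.70 and 6.88 on the ILK-deficient arrays, against 6.57, 6.41, 6.49, 6.51 and 6.63 on the ILK-expressing arrays. ILK-deficient replicate 2 lay within the control values and the other 4 above them (log2 fold change 0.26, standard error 0.088, limma adjusted p = 0.155). Irf3, which is made without interferon and is activated by nucleic acid sensors, read 8.36, 8.06, 7.85, 8.14 and 7.94 on the ILK-deficient arrays, against 8.39, 8.03, 8.55, 8.16 and 8.35 on the ILK-expressing arrays. Its log2 fold change was -0.22 (limma adjusted p = 0.423), with overlapping genotypes. Irf9, the DNA-binding partner of Stat2, read 8.71, 8.56, 8.53, 8.28 and 8.55 on the ILK-deficient arrays, against 8.56, 8.32, 8.62, 8.05 and 8.48 on the ILK-expressing arrays (log2 fold change 0.12, limma adjusted p = 0.741, and 0.03 without ILK-expressing replicate 4). Stat2 read 9.15, 8.84, 8.69, 8.71 and 8.59 on the ILK-deficient arrays, against 8.67, 8.66, 8.95, 8.57 and 9.00 on the ILK-expressing arrays (log2 fold change 0.02, limma adjusted p = 0.967). These 2 partners of the type I complex overlapped between genotypes.

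Ifi30, the lysosomal thiol reductase that prepares antigens for display, was the only member lower at an unadjusted p under 0.05. It read 11.62, 11.74, 11.56, 11.35 and 11.56 on the ILK-deficient arrays, against 11.75, 11.80, 12.03, 11.70 and 12.15 on the ILK-expressing arrays. A single pair of values crossed, with ILK-deficient replicate 2 above ILK-expressing replicate 4. The log2 fold change was -0.32 (standard error 0.103, limma adjusted p = 0.133).

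Members of 3 further families differed little. Gbp7, a guanylate-binding GTPase of the kind that attacks the vacuoles of intracellular microbes, read 6.55, 6.46, 6.72, 6.54 and 6.44 on the ILK-deficient arrays, against 6.46, 6.39, 6.38, 6.40 and 6.49 on the ILK-expressing arrays (log2 fold change 0.12, limma adjusted p = 0.429), and the 6 Gbp genes tested ran from -0.07 to 0.16. Mx1, a dynamin-like antiviral GTPase, read 6.55, 6.13, 6.04, 6.28 and 6.13 on the ILK-deficient arrays, against 6.14, 6.04, 6.11, 5.97 and 6.24 on the ILK-expressing arrays (log2 fold change 0.12, limma adjusted p = 0.659). Isg20l2 read 9.44, 9.67, 9.54, 9.60 and 9.67 on the ILK-deficient arrays, against 9.44, 9.01, 9.79, 9.19 and 9.61 on the ILK-expressing arrays (log2 fold change 0.18, limma adjusted p = 0.646). In all 3 the genotypes overlapped. Mx1 was at 0.04 without ILK-deficient replicate 1, and Isg20l2 at 0.08 without ILK-expressing replicate 2. Ifih1, the sensor of long double-stranded RNA, and Rsad2, the antiviral enzyme viperin, had log2 fold changes of 0.15 and 0.16 (limma adjusted p = 0.462 and 0.708).

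Over the 52 members tested, limma called 1 higher (1.92%), where 900 of all 32046 probe sets (2.81%) were called higher, and 0 lower, where 0.97% were. At an unadjusted p under 0.05, 8 members were higher (15.4%, against 10.2% of all) and 1 was lower (1.92%, against 5.65%). The genotypes did not overlap for 3 members with ILK-deficient above (5.77%, against 4.37% of all), namely Ifi202b, Ifitm2 and Ifitm3, and for 0 with ILK-deficient below (against 1.96%). The shares called and without overlap were thus near those of all probe sets. Without ILK-deficient replicate 3, limma called 3 members higher (Ifi202b, Ifitm2 and Ifit1), 5.77% against 2.41% of all probe sets. The count without overlap, in either direction, became 6 without ILK-deficient replicate 2 (11.5%, against 7.84% of all), 6 without replicate 3 (11.5%, against 8.37%), and 5 without ILK-expressing replicate 2 (9.62%, against 8.23%).

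By sign alone, 41 of the 52 (78.8%) were above 0, where 51.0% of all probe sets were, and the median log2 fold change was 0.08, where that of all was 0.00. Members share regulators and arrays and are not independent, so no test was made of this. Leaving out Ifi202b, the median size of the difference over the other 51 was 0.09, the largest was 0.41, and the 95% interval lay within 1.5-fold either way for 46 of them. That share was 82.6% among all probe sets. The members were dimmer than most, with a median of their means of 6.47, against 7.48 for all probe sets tested. Of the 52, 37 lay below 7.48. The effect of low signal on the size of the differences and intervals was not tested. The 5 members that could not be tested were Gbp4, Gbp5, Ifi208 and Oas1h, under a linear value of 50 on all 10 arrays, and Ifit2, and 8 of the 52 tested were under it on at least 1 array.

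**Figure D2:**
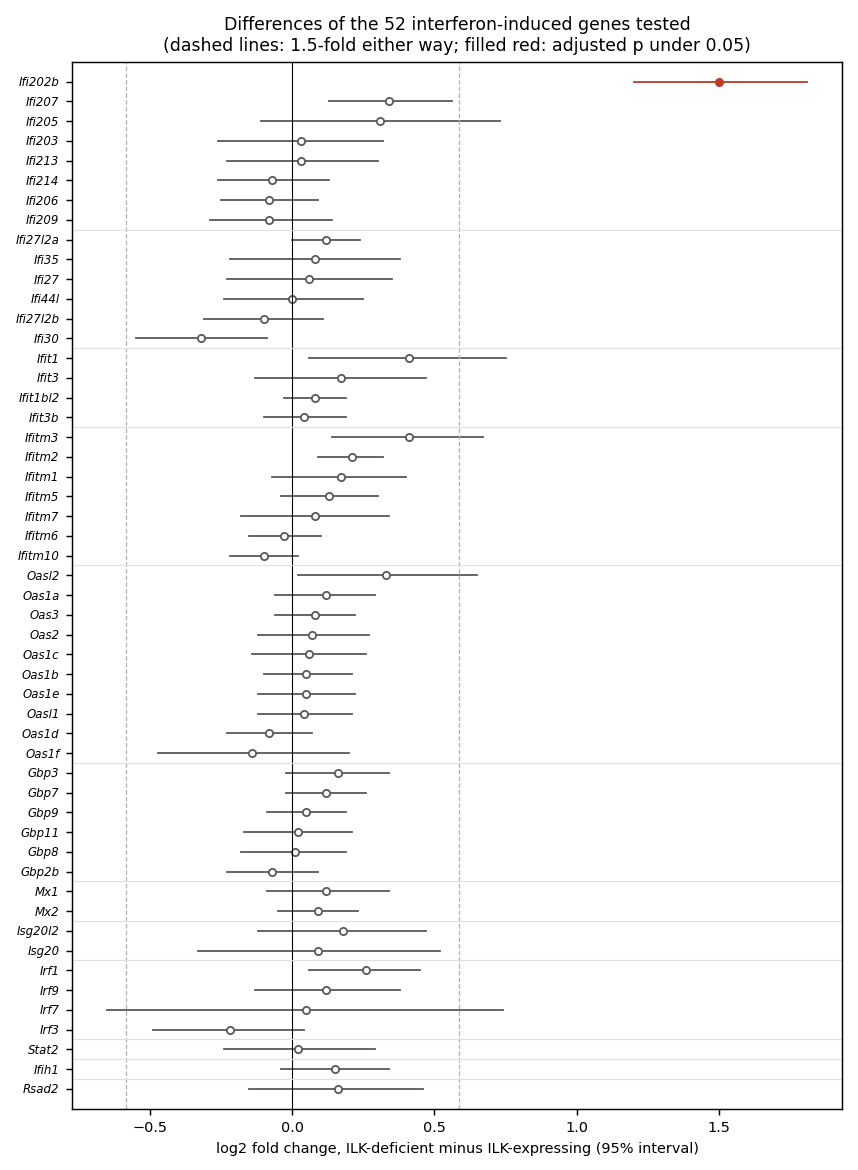
Log2 fold change, ILK-deficient minus ILK-expressing, of the 52 members tested, grouped by family, with 95% intervals from limma. Ifi202b (1.5) lies apart from the rest, whose points run from -0.32 for Ifi30 to 0.41 for Ifit1 and Ifitm3.

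The members also varied among mice of a genotype. ILK-deficient replicate 1 was the highest of the 10 arrays for 14 of the 52 members, and the highest of its genotype for 18 (34.6%), where it was so for 20.3% of all probe sets. The 14 included Ifit1, Oasl2, Mx1, Stat2 and Irf9. In the ILK-expressing group, replicate 2 was the highest for 18 members (34.6%, against 24.3% of all probe sets), and replicate 5 for 15 (28.8%, against 25.6%), among them Irf7 and Oasl2. The median SD within genotypes was 0.148 over the members and 0.156 over all probe sets tested, so as a whole the members spread no more widely than other probe sets. Probe sets of like brightness were not compared.

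**Figure D3:**
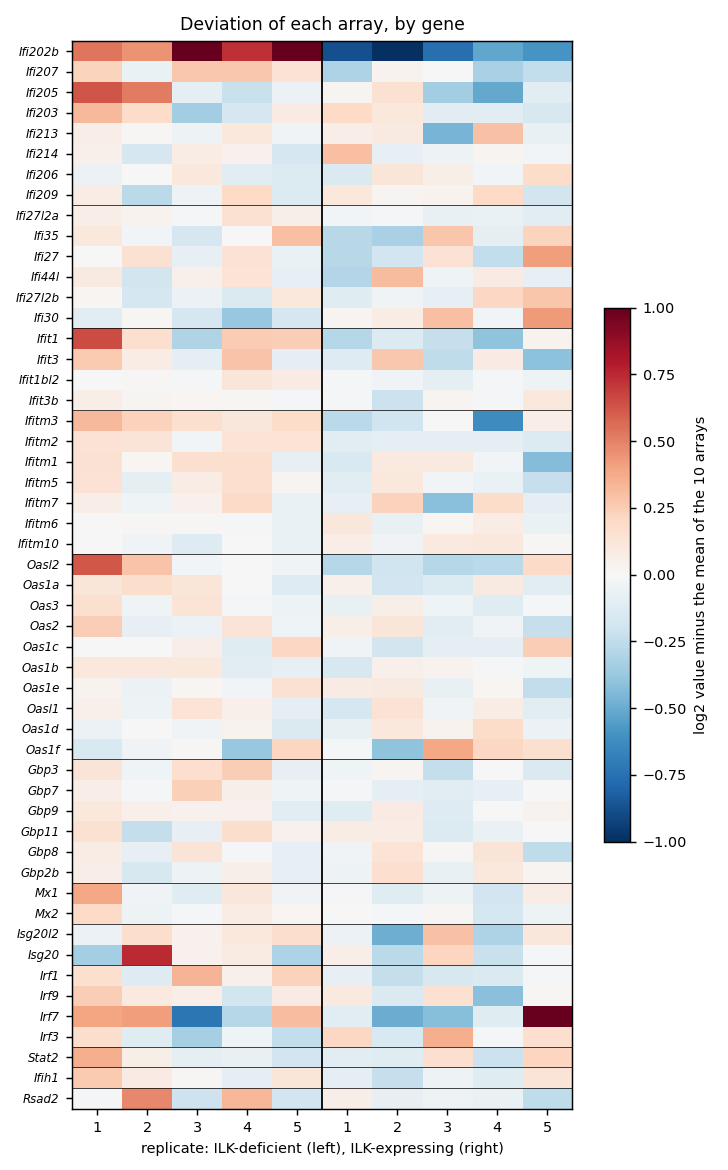
Log2 value of each array minus the mean of the 10 arrays for each member tested, with ILK-deficient arrays left and ILK-expressing arrays right of the line, red above and blue below the mean, and the scale closed at 1 either way. Ifi202b splits the genotypes, while Irf7, Ifit1 and Oasl2 have single arrays that stand out within a genotype, such as ILK-expressing replicate 5 for Irf7 (8.85).

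Other genes of the pathway were taken from fixed lists, chosen with earlier results of these data known. Over all probe sets, 2.81% were called higher and 0.97% lower. None of 15 interferon ligands tested was called, and their log2 fold changes ran from -0.11 to 0.10. Their means over the arrays ran from 5.64 to 9.78, and several lay near the filter's log2 value of 5.64. For those, a lack of difference cannot be told apart from a lack of signal. Of 9 receptor chains and Janus kinases, 2 were higher, which were Ifnar2, a chain of the type I receptor, with a log2 fold change of 0.52 (standard error 0.121, limma adjusted p = 0.0404), and the kinase Jak2 at 0.43 (standard error 0.0786, limma adjusted p = 0.0167). Ifnar2 read 9.20, 9.54, 9.32, 9.45 and 9.44 on the ILK-deficient arrays, against 8.80, 8.62, 9.11, 8.64 and 9.16 on the ILK-expressing arrays, without overlap. Jak2 passed whichever array was left out, but not among the 7 mice with letter D (0.36, limma adjusted p = 0.178). Ifnar2 lost its call in 8 of 10 such fits, all but those without ILK-expressing replicate 3 or 5, with log2 fold changes of 0.46 to 0.60 and limma adjusted p values up to 0.0999.

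Of 13 nucleic acid sensors and adaptors outside the members, 1 was higher, where 2.81% of all probe sets were. This was Ddx58, which encodes the RNA sensor RIG-I and is itself induced by interferon, with 9.55, 9.17, 8.79, 8.98 and 9.00 on the ILK-deficient arrays, against 8.41, 8.14, 8.57, 8.22 and 8.64 on the ILK-expressing arrays. The groups did not overlap, and the log2 fold change was 0.70 (standard error 0.146, limma adjusted p = 0.0266). The call was lost without ILK-deficient replicate 2 or 5, or without ILK-expressing replicate 1, 2 or 4 (limma adjusted p up to 0.0692, log2 fold change 0.59 to 0.78 over the 10 fits with an array left out). Of 4 other interferon regulatory factors, 1 was higher, Irf2, an antagonist of Irf1, at 0.41 (standard error 0.0764, limma adjusted p = 0.0167), and it passed whichever array was left out, but not among the mice with letter D (0.43, limma adjusted p = 0.122).

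None of 35 other type I response genes was called higher or lower, though 9 were higher at an unadjusted p under 0.05, where 10.2% of all probe sets were, and 29 lay above 0 (median 0.11), where 51.0% of all did. The chemokine gene Cxcl10 had the largest log2 fold change among them at 0.55 (limma adjusted p = 0.0915), followed by Lgals3bp at 0.50 (limma adjusted p = 0.101). Cxcl10 passed without ILK-deficient replicate 3 (0.65, limma adjusted p = 0.0482) and without ILK-expressing replicate 5 (0.64, limma adjusted p = 0.0478). None of 9 type II response genes, 10 antigen processing genes or 7 feedback inhibitors was called. Socs3, an inhibitor of Janus kinases, was at 0.68 (limma adjusted p = 0.177) and Usp18, which blocks the type I receptor, at 0.32 (limma adjusted p = 0.188). Aim2, a DNA sensor related to the Ifi200 proteins, was at 0.39 (limma adjusted p = 0.176). The lists were small and their shares are counts only.

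**Figure D4:**
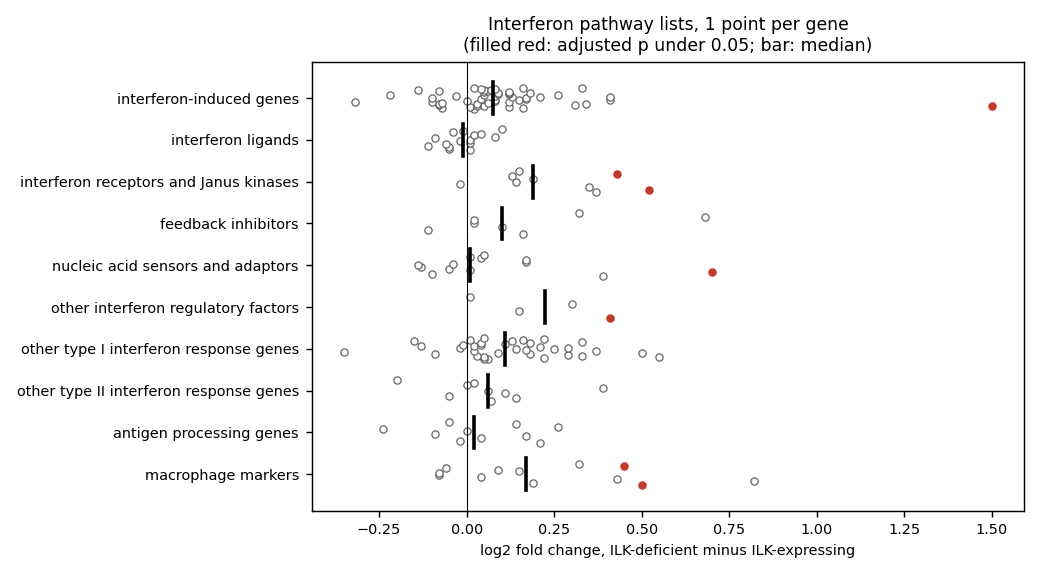
Log2 fold change, ILK-deficient minus ILK-expressing, with 1 point per gene tested, for the interferon-induced genes, 8 other lists of the pathway and the macrophage markers, and a bar at the median of each. Filled points passed the limma test, and in the lists of the pathway they are Ifi202b, Ifnar2, Jak2, Ddx58 and Irf2.

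Markers of cell types were read in the same way, and some differed between genotypes. Of 12 macrophage markers, 2 were higher, Adgre1 at 0.50 (limma adjusted p = 0.0107) and the lysozyme gene Lyz2 at 0.45 (limma adjusted p = 0.0375). Over all probe sets, 2.81% were called higher. Of the 12, 9 lay above 0 and 3 below, from -0.08 to 0.82 (median 0.17). Adgre1 passed whichever array was left out, but not among the mice with letter D (0.46, limma adjusted p = 0.0896), while Lyz2 lost its call in 9 of 10 such fits, all but that without ILK-deficient replicate 5. C1qb was at 0.82 (limma adjusted p = 0.0622), and with 1 array left out it lay between 0.69 and 0.99 (limma adjusted p = 0.0224 to 0.142), passing only without ILK-expressing replicate 3. The summed linear values of the 12 ran from 1770 to 2180 on the ILK-deficient arrays, against 1460 to 1880 on the ILK-expressing arrays. Of 7 T cell markers tested, Thy1 was higher at 0.39 (limma adjusted p = 0.0421), a call lost in 9 of 10 fits with an array left out, all but that without ILK-expressing replicate 3. Of the 7, 5 lay above 0 and 2 below, from -0.02 to 0.39. None of 9 Langerhans cell, 7 neutrophil, 7 endothelial or 8 dermal fibroblast markers was called. All 8 of the fibroblast markers lay above 0 (median 0.29), and their summed values ran from 5210 to 8170 on the ILK-deficient arrays, against 2310 to 6760 on the ILK-expressing arrays. Dcn, the brightest of the 8, weighed most in these sums. It was at 0.77 (limma adjusted p = 0.467), with 11.52 to 12.49 on the ILK-deficient arrays, against 9.74 to 12.25 on the ILK-expressing arrays. The 9.74 was that of ILK-expressing replicate 4. Of 10 keratinocyte markers, 8 lay below 0 and 2 above (median -0.05). Trp63 was called higher at 0.35 (limma adjusted p = 0.0204) and Krt14 lower at -0.23 (limma adjusted p = 0.0452). Krt15, at -0.33, was not called (limma adjusted p = 0.0969). The call on Trp63 was lost without ILK-deficient replicate 1, 2 or 5 or ILK-expressing replicate 4, and that on Krt14 in 9 of 10 fits, all but that without ILK-expressing replicate 5. The part of these cells in the difference of Ifi202b, Ddx58, Ifnar2, Jak2 and Irf2 was not tested.

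Probe sets with several symbols, 6 of which include a symbol of the same families, were not used for naming. Their log2 fold changes ran from -0.04 to 0.44, and none was called (lowest limma adjusted p = 0.12). The values 0.44 and 0.12 belong to the probe set shared by Ifi211 and Ifi204.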

How the data were processed

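Epidermal RNA of 10 mice was hybridized to 10 arrays. The authors deposited log2 expression values, 1 per probe set and array, after background adjustment, quantile normalization and summary over probes. The submitters' processing notes name Partek and RMA, and the methods also name GC-RMA, so which made the table is not given in the sources used here. Groups were taken from the sample labels. The number of columns of no sample was 0.

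Of 35556 probe sets, 32046 reached 50 on the linear scale (log2 5.64) in 5 or more arrays and entered the fit in limma 3.58.1 in R 4.3.3 (lmFit, eBayes, no covariate), with Benjamini-Hochberg adjustment. The value of 50 is that of the methods, whose test was an analysis of variance, and the number of arrays was set here. Symbols came from the platform annotation, where 21789 probe sets had 1 symbol, 1621 several and 12146 none. All 57 members matched the RefSeq gene table. For single genes, exact permutation tests over the arrays are given as well. The comparison was also run on simulated data, in which probe sets were independent and arrays held no effect of letter or replicate number. That run does not bear on such effects in the real arrays.

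Values on every array are given for members past the threshold, those without overlap, the 6 with the largest differences, the regulators Stat2, Irf1, Irf3, Irf7 and Irf9, and the member of each family with the highest mean. From each list, genes past the threshold and up to 2 with the largest differences could be named, and the others named are Ilk, Krt5 and Krt14 as checks. The members and lists were chosen with earlier results of these data known. Alternatives changed the filter, scaling, test, block, covariate, probe sets per gene, threshold or arrays. The number of arrays limits the precision.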

Additional observations from a re-analysis of the deposited data

Results flagged for a closer look

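Of 34 groups of 5 arrays examined (17 genes in each genotype), 3 had an array farther from the others than Dixon's 95% limit, where chance gives about 1 in 20. Ifitm2 was 13.05 on ILK-deficient replicate 3, with the next value at 13.20. Irf7 was 8.85 on ILK-expressing replicate 5, with the next at 7.71. Oasl2 was 7.03 on ILK-expressing replicate 5, with the next at 6.64. The values for Irf7 and Oasl2 came from the same mouse, the only one with label letter C'. With the letter as a covariate, the log2 fold change was 0.32 for Irf7 and 0.42 for Oasl2 (limma adjusted p = 0.565 and 0.15).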

How the results depend on the processing

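Ifi202b kept its direction and its call under all 22 alternatives, with log2 fold changes from 1.43 to 1.58 and limma adjusted p values (or those of the analysis of variance) from 0.000185 to 0.0107. With a replicate block, which pairs arrays by their number, it was 1.5 (limma adjusted p = 0.00511), 1 member was called, and no call on a member changed. Of the 9 pathway and marker genes called, all 9 lost their call with the block, and Socs3 gained one (0.68, limma adjusted p = 0.0268). Deviations of same-numbered arrays correlated at -0.296 to 0.113, so no strong shared deviation was seen. The litter and processing day of each mouse are not given in the sources used here. Whether the numbers pair the mice was therefore not tested, and the correlations do not decide between the fits with and without the block. The block lowered the calls over all probe sets to 477 higher and 131 lower, against 900 and 311.

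Members called higher were 2 under quantile normalization, the trend and robust fit and the methods' analysis of variance (Ifitm2 added each time), 2 with array weights and 2 with the letter of the mouse label as a covariate (Ifitm3 added), each 3.85% of members against 1.65% to 3.16% of all probe sets, and 3 with probe sets averaged per gene (Ifi207 and Ifitm3 added, over 18121 tests, 5.77% against 6.73%). Leaving out 1 array gave 1 to 3. Members called lower were 0 in all 23 alternatives, and at an unadjusted p under 0.05 there was 1. Members without overlap numbered 6 among mice with label letter D (11.5%, against 11.4% of all probe sets), and 3 to 6 with 1 array left out. The median of the members stayed between 0.05 and 0.11. Reversals concerned log2 fold changes near 0, which were Irf7 with 1 array left out (-0.07 to 0.31) and Stat2 under quantile normalization (-0.0019) or with 1 array left out (-0.06 to 0.08). Among mice with letter D, none of the 9 pathway and marker genes was called (limma adjusted p = 0.0896 to 0.235). Apart from the block and arrays left out, calls were also lost with arrays centred on their median (Ifnar2, Lyz2, Thy1), the analysis of variance (Ddx58, Ifnar2, Lyz2, Thy1), the letter as a covariate (Krt14, Lyz2, Thy1, Trp63), quantile normalization or the trend and robust fit (Thy1), and the filter at a higher linear value (Krt14), at adjusted p = 0.0503 to 0.0945. The causes were not tested.

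Calls over all probe sets were 593 higher and 255 lower with arrays centred on their median, 528 and 158 with the analysis of variance, 1220 and 473 with probe sets averaged per gene, and 193 and 101 among mice with letter D. With 1 array left out they ran from 439 to 793 higher and from 158 to 281 lower. What the letters of the mouse labels stand for is not given in the sources used here. Of the 52 members tested, 8 were under the filter's value on at least 1 array.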
